A study of Mus musculus with 20 samples.

Results

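The mitochondrial carrier family (Slc25) comprises the proteins that move metabolites across the inner mitochondrial membrane. Its members were taken as every row of the count table whose gene symbol starts with Slc25a, which gave 47 of 23129 genes on 19 chromosomes, 4 of them on the X chromosome. Of the 47, 38 passed the filter on low counts and were tested, and 9 did not. The choice of members used no measured value. On GRCm38 (GENCODE M21), the genes that the results turn on most are Slc25a5 at chrX:36795651-36798807 (plus strand), Slc25a3 at chr10:91116574-91124059 (minus strand), Slc25a33 at chr4:149744036-149774277 (minus strand), Slc25a20 at chr9:108662088-108684641 (plus strand) and Slc25a51 at chr4:45395923-45408766 (minus strand).

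The RNA came from sorted AgRP neurons, cells of the hypothalamus whose activity drives hunger and whose peptides are encoded by Agrp and Npy. All mice were C57BL/6, aged P25 to P30, and carried AgRP-Cre/+ and the Cre-dependent red reporter Ai9/+. For the wild type no other allele is given, and the conditional knockout littermates (cKO) were also Phf6 flox/y, so that Cre made in Agrp-expressing cells removes Phf6, which lies on the X chromosome and encodes a nuclear protein with zinc fingers. Fasted mice had water alone from 5 pm on the previous day. Hypothalamic punches were dissociated with papain, and 1000 tdTomato-positive cells were sorted per sample. The 4 groups (wild type fed, wild type fasted, cKO fed, cKO fasted) had 5 libraries each. The labels do not say that the replicates of a group were different mice, so p-values measure the spread between these samples, which may be technical.

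Carriers of this family are nuclear-encoded, are imported after translation and sit in the inner membrane, where each exchanges or co-transports particular substrates. Together they let ADP, phosphate and fuel into the matrix, let ATP out, and supply cofactors, amino acids and iron. In neurons the aspartate/glutamate and oxoglutarate carriers form the malate-aspartate shuttle, which brings reducing equivalents from cytosolic NADH into mitochondria. A few relatives, the uncoupling proteins and the mitochondrial carrier homologues Mtch1 and Mtch2, carry other symbols and are treated apart.

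Libraries held 8494499 to 13573524 counts, and the fasted ones were the shallower. Phf6 stood at 264 to 292 CPM (library-size-scaled counts, with TMM factors) in wild type fed, 116 to 143 in wild type fasted, 65.0 to 76.3 in cKO fed and 53.6 to 71.3 in cKO fasted, so the cKO libraries lay below the wild type in both states. The counts cover the whole gene and where the deletion lies was not stated for these libraries. The summed AgRP-neuron markers reached 19990 to 30640 CPM in fed and 50060 to 84230 CPM in fasted libraries. Microglial markers summed to at most 1.74 CPM and endothelial markers to at most 4.64 CPM. Oligodendrocyte markers summed to 82.6 to 104 CPM in fed and 49.1 to 73.5 CPM in fasted libraries. The 8 astrocyte markers summed to 129 to 291 CPM. Of these, Gfap averaged at most 0.574 CPM and Aqp4 at most 0.448 CPM in any group, so other genes of the list made up the sum. Tanycyte and ependymal markers summed to 32.4 to 56.3 CPM in fed and 23.4 to 46.6 CPM in fasted libraries. Markers of Pomc neurons, a neighbouring cell type, summed to 823, 1097 and 934 CPM in replicates 3 to 5 of cKO fasted against 313 to 531 CPM in the other libraries. Replicates 1 and 2 stood apart in both fasted groups, with an AgRP marker sum of 84230 and 83480 CPM against 58650 to 60170 CPM in replicates 3 to 5 of wild type, and of 62030 and 68560 CPM against 50060 to 54170 CPM in cKO. The part of these differences in the results below was not tested. In a pool of sorted cells, fewer cells of a type and less RNA per cell cannot be told apart.

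Levels of different members were compared per length, as RPKM (CPM per kilobase of exon). The family took 0.522% ± 0.00756 (SD, n = 5) of all raw counts in wild type fed, 0.494% ± 0.0153 in wild type fasted, 0.506% ± 0.00461 in cKO fed and 0.495% ± 0.0141 in cKO fasted. These shares do not use the TMM factors. With them, the family's summed CPM was higher when fasted, at 4774 ± 81.85 in wild type fed and 5417.8 ± 164.1 in wild type fasted. In cKO it was 4734.4 ± 77.89 when fed and 5285.1 ± 92.08 when fasted. A few members made up most of the family's counts. Slc25a4 and Slc25a5, which exchange cytosolic ADP for matrix ATP, and Slc25a3, which brings in phosphate and copper, together gave 59.0% ± 0.586 of the family's counts in wild type fed. Their share was 66.2% ± 1.17 in wild type fasted, 58.9% ± 0.482 in cKO fed and 66.3% ± 0.744 in cKO fasted.

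In wild type fed libraries the order of levels began with Slc25a4 at 614 ± 10.4 RPKM (SD, n = 5), Slc25a5 at 273 ± 9.26, Slc25a3 at 166 ± 4.17 and the oxoglutarate/malate carrier Slc25a11 at 137 ± 6.13 RPKM. The citrate carrier Slc25a1 followed at 80.7 ± 3.72 RPKM. These 5, and Slc25a39 and Slc25a14 after them, did not touch their neighbours in the order within 1 SD. The SDs cover the libraries and not the choice of length. With the longest transcript as length, Slc25a39 (119 RPKM) stood above Slc25a1 (105 RPKM). Below them, most neighbours did: over the 38 tested members, 24 of 37 neighbouring pairs lay within their summed SDs. The levels spread widely, with 4 members at 100 RPKM or more, 11 from 10 to 100, 16 from 1 to 10 and 7 under 1 RPKM. Slc25a4, Slc25a5 and Slc25a3 led in that order in all 4 groups. By exon length, Slc25a11 held the place after them in both fed groups. In both fasted groups it was held by Slc25a33, a pyrimidine nucleotide carrier, at 104 ± 4.09 RPKM in wild type and 132 ± 26.5 RPKM in cKO. In wild type fasted, Slc25a33 and Slc25a11 (101 ± 12.9 RPKM) did not differ beyond their spread. With the longest transcript as length, Slc25a11 kept the place in wild type fasted, at 125.5 RPKM against 104 RPKM for Slc25a33. In cKO fasted, Slc25a33 (132 RPKM) still stood above Slc25a11 (113.9 RPKM) by that length.

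**Figure D1:**
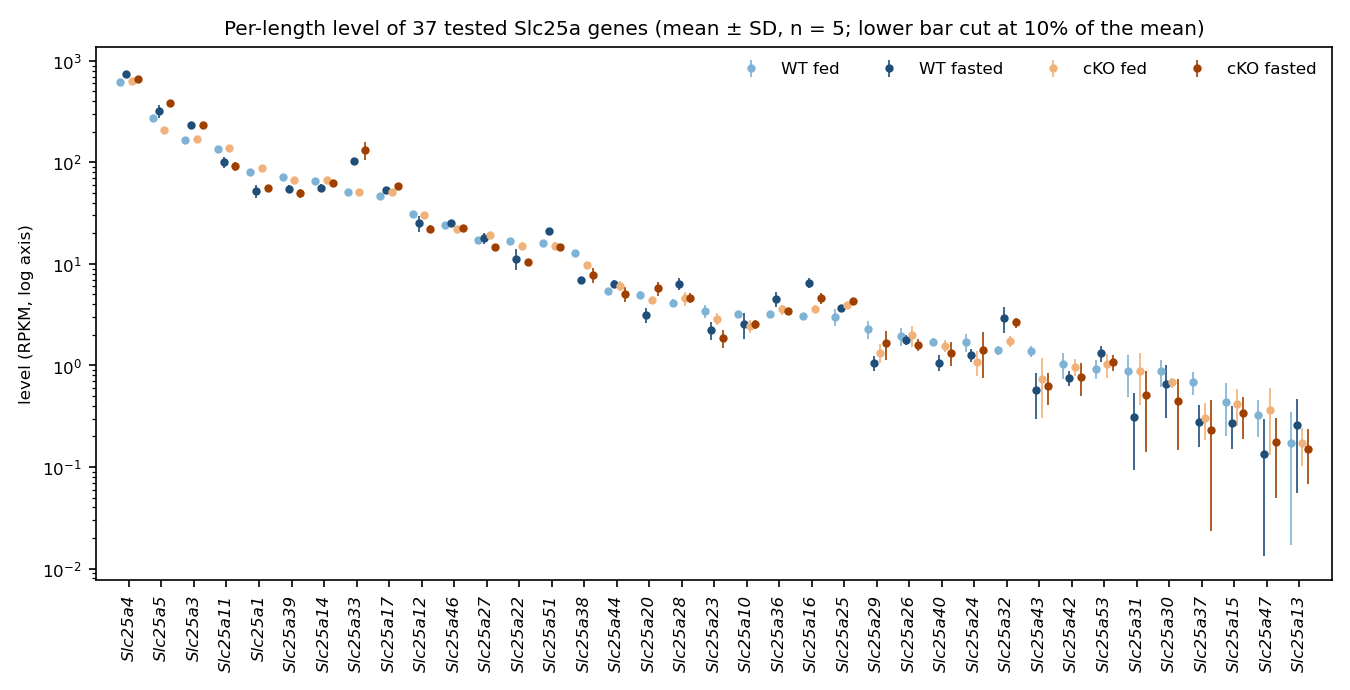
Level of 37 of the 38 tested Slc25a genes in RPKM on a log axis, with the genes on the x axis ordered by their level in wild type fed; points are means and bars SD over 5 libraries, in 4 colours for the 4 groups. Slc25a4 stands highest in every group, at 614 to 746 RPKM, and the lowest tested gene in wild type fed, Slc25a13, at 0.171 RPKM.

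Several members known from other tissues were at or near the floor, where 3 counts correspond to 0.221 to 0.353 CPM depending on the library. Slc25a21, the oxoadipate carrier, had 0 counts in all 20 libraries. Slc25a18, a glutamate carrier typical of astrocytes, had 0 to 18 counts per library and was not tested, whereas its close relative Slc25a22 stood at 101 ± 3.52 CPM (SD, n = 5) in wild type fed. Slc25a13, the aspartate/glutamate carrier best known from liver, had 0 to 21 counts per library, whereas the neuronal form Slc25a12 stood at 228 ± 11.4 CPM. Slc25a31, the ADP/ATP carrier of male germ cells, had at most 42 counts. The other untested members, each with at most 10 counts in any library, were Slc25a2, Slc25a34, Slc25a35, Slc25a41, Slc25a45, Slc25a48 and Slc25a54.

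Fasting changed most tested carriers in wild type, in both directions. By edgeR's quasi-likelihood test, with Benjamini-Hochberg adjustment over all 13237 tested genes and an adjusted p under 0.05, 12 members rose, 15 fell and 11 did not pass (71.1% called). The background was 60.9% called among all genes tested, 29.6% rising and 31.3% falling, so the family's share lay somewhat above a high background. The members' median log2 fold change was -0.32, against -0.03 over all genes. Of 9 carriers of nucleotides, cofactors and vitamins, 6 rose. Those of di- and tricarboxylates, of aspartate and glutamate, and of other amino acids and glutathione had 8 falls and no rise among 12 tested members.

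In cKO, fasting raised 7 members, lowered 9 and left 22 not passed (42.1% called), against a background of 53.1% called, 26% rising and 27% falling. The median was -0.20, against -0.03 over all genes. Of the 38 members, 6 rose in both genotypes, 8 fell in both, 1 fell in wild type and rose in cKO, and 10 passed in neither. A further 12 passed in wild type alone, and for 5 of those the interaction of genotype with fasting also passed, whereas for 7 the difference between genotypes was not established. Slc25a27 alone passed only in cKO. The libraries of fed and fasted mice did not overlap for 22 members in wild type (57.9%, background 45%) and for 13 in cKO (34.2%, background 39.6%).

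These counts are relative to the TMM scaling, whose factors were 0.902 to 0.95 in fasted and 1.06 to 1.11 in fed libraries. Scaling by library totals instead, an alternative added after the data were seen, moved the median of all genes to -0.30 in wild type and -0.23 in cKO. The split then was 6 rises and 20 falls in wild type, and 4 rises and 17 falls in cKO. Shares of all genes rising and falling on that scale are not given. The small rises of Slc25a4, Slc25a5 and Slc25a17 in wild type were lost on that scale, as given below, whereas those of Slc25a3, Slc25a16, Slc25a32 and Slc25a33 held.

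**Figure D2:**
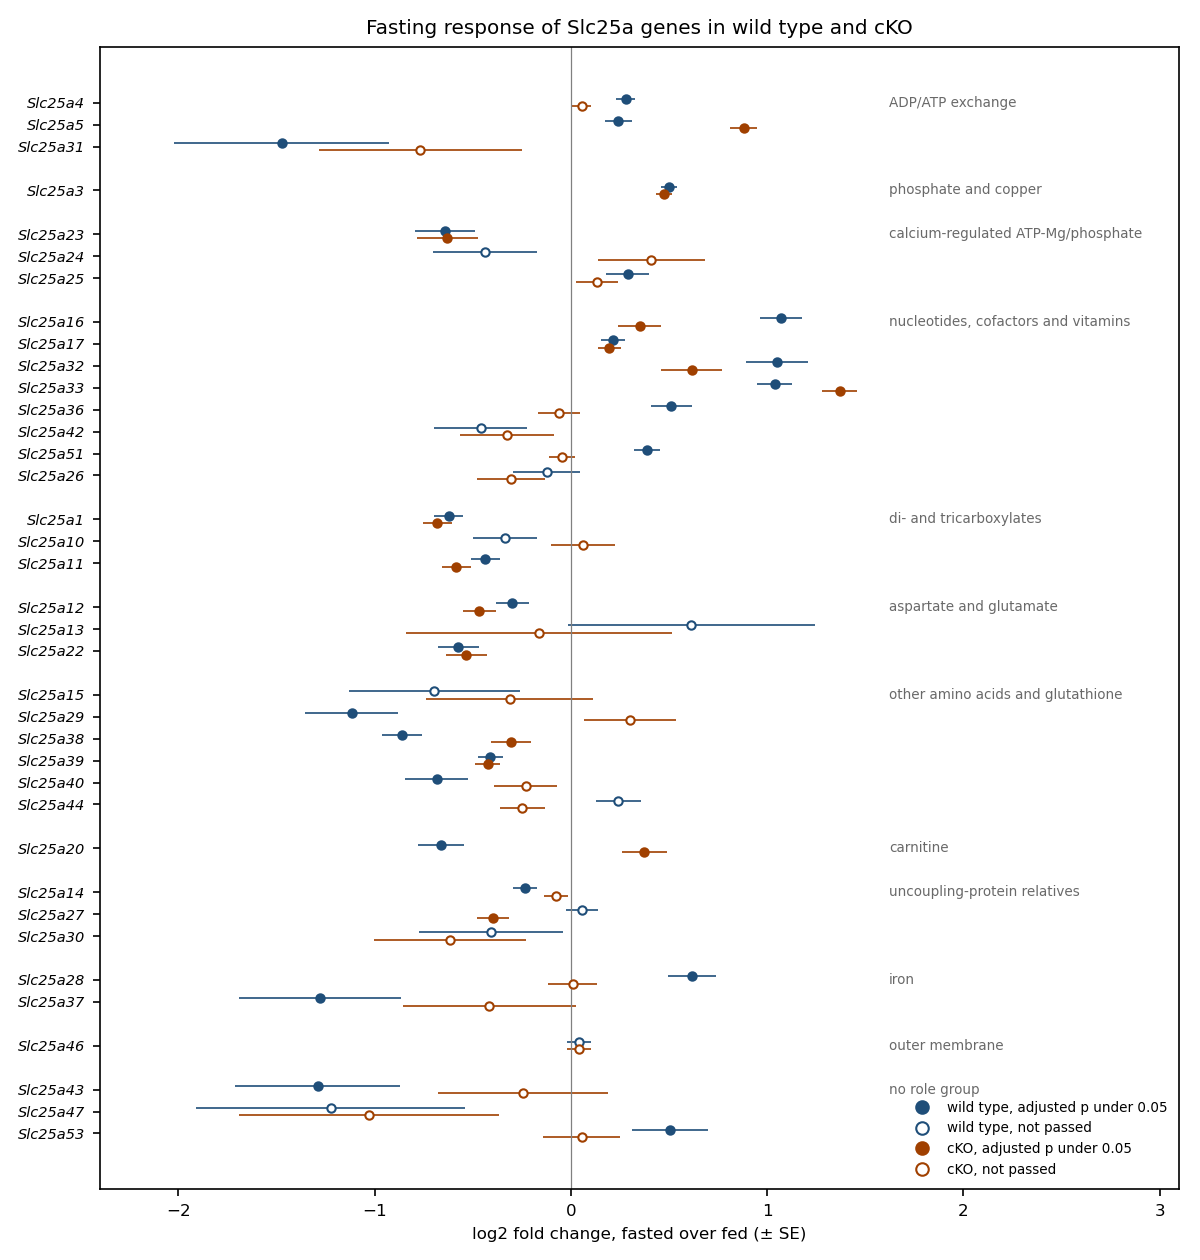
Log2 fold change of 37 of the 38 tested Slc25a genes, fasted over fed, with its SE, in wild type (blue) and cKO (brown), grouped by the substrates carried; filled points have an adjusted p under 0.05. Slc25a33 lies to the right in both genotypes (1.04 and 1.37) and Slc25a20 on opposite sides (-0.66 and 0.38).

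For both abundant ADP/ATP carriers, Slc25a4 and Slc25a5, the interaction of genotype with fasting passed, as given further on. That of Slc25a4 was lost without cKO fasted replicate 1 (-0.18) and with library totals (-0.15). Slc25a4, the main form of muscle, heart and brain, measured 1471, 1465, 1417, 1424 and 1451 CPM in wild type fed replicates 1 to 5 and 1662, 1617, 1829, 1820 and 1844 CPM in wild type fasted. All fasted libraries lay above all fed ones, and Slc25a4 rose by 0.28 ± 0.05 (log2, SE; edgeR adjusted p 1.15e-05). In cKO it measured 1465, 1448, 1526, 1508 and 1578 CPM when fed and 1429, 1512, 1623, 1654 and 1602 CPM when fasted. Those groups overlapped, and the difference of 0.06 did not pass (95% interval -0.05 to 0.16). With fasted replicates 1 and 2 alone the wild-type rise was 0.16. With library totals the wild-type difference was 0.02 (edgeR adjusted p 0.776) and the cKO difference became -0.14 (edgeR adjusted p 0.0176).

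Slc25a5, the form of growing and many non-muscle cells, measured 453.8, 457.6, 424.1, 463.7 and 449.3 CPM in wild type fed and 629.6, 605.7, 473.1, 468.5 and 483.3 CPM in wild type fasted. The fasted libraries were all above the fed ones, with replicates 1 and 2 well above replicates 3 to 5. The difference was 0.24 ± 0.07 (edgeR adjusted p 0.0036). It was 0.08 (edgeR adjusted p 0.0793) with fasted replicates 3 to 5 alone and 0.44 with replicates 1 and 2 alone, -0.03 (edgeR adjusted p 0.698) after offsets for GC content and length, and -0.02 (edgeR adjusted p 0.788) with library totals, so its direction in wild type was not stable. In cKO it measured 343, 330.7, 345.3, 339.1 and 346.5 CPM when fed and 674.2, 677.4, 606.2, 591.5 and 588.9 CPM when fasted. There it rose 1.84-fold (0.88 ± 0.07, edgeR adjusted p 3.01e-11) with no overlap, and this held under every alternative tried, at 0.69 with library totals. Processed pseudogenes that match Slc25a5 at 96.8% and 98.3% of aligned bases (Gm5529 and Gm5560) are not in the count table, so reads shared with them could affect its level. Slc25a31 fell in wild type (-1.47 ± 0.55, edgeR adjusted p 0.0216) from at most 3.02 CPM, a call that was lost without wild type fed replicate 2 (-1.23) or fasted replicate 3 (-1.15).

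Slc25a3, which supplies the phosphate for ATP synthesis and copper for cytochrome oxidase, rose in both genotypes. It measured 916.8, 932.8, 887.5, 948.2 and 908.8 CPM in wild type fed, and 1308, 1276, 1231, 1310 and 1378 CPM in wild type fasted. In cKO the values were 936.4, 933, 963.8, 926.6 and 953.2 CPM when fed and 1352, 1275, 1314, 1341 and 1271 CPM when fasted. Fasted and fed libraries did not overlap in either genotype. Slc25a3 rose by 0.50 ± 0.04 in wild type (edgeR adjusted p 3e-11) and by 0.48 ± 0.04 in cKO (edgeR adjusted p 1.72e-10), and the interaction was -0.03 (95% interval -0.15 to 0.10) and did not pass. With library totals the rises were 0.24 and 0.28 and both still passed.

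Among the carriers of nucleotides, cofactors and vitamins, Slc25a33, Slc25a16 and Slc25a32 rose at least 2-fold in wild type, and Slc25a33 alone did so in cKO. Slc25a33 measured 98.4, 96.6, 92.8, 90.7 and 99.4 CPM in wild type fed and 197, 205, 184, 198 and 198 CPM in wild type fasted, a 2.05-fold rise (1.04 ± 0.09, edgeR adjusted p 4.16e-11). In cKO it went from 96.6, 88.8, 101.7, 98.9 and 96.9 CPM to 308, 298, 204, 230 and 209 CPM, a 2.58-fold rise (1.37 ± 0.09, edgeR adjusted p 4.54e-13). All fasted libraries lay above all fed ones in both genotypes, and replicates 1 and 2 of cKO fasted were above the other 3. Of its exon bases, 14.9% overlap the antisense gene Gm13068, and the library kits do not mark strand.

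Slc25a16, a carrier linked to coenzyme A, measured 15.0, 14.6, 14.5, 13.7 and 16.4 CPM in wild type fed and 31.8, 26.5, 36.1, 30.9 and 30.8 CPM in wild type fasted, a 2.104-fold rise (1.07 ± 0.11, edgeR adjusted p 1.35e-09) without overlap. In cKO the values were 18.15, 19.66, 15.34, 17.04 and 16.5 CPM when fed and 19.5, 22.1, 20.3, 26.6 and 22.0 CPM when fasted, a rise of 0.35 ± 0.11 (edgeR adjusted p 0.00774) with overlap. That smaller rise was lost with GC and length offsets (0.25), with library totals (0.16) and with fasted replicates 1 and 2 alone (0.27). Slc25a32, the folate and FAD carrier, measured 7.63 to 9.73 CPM in wild type fed and 11.9 to 25.6 CPM in wild type fasted, a 2.07-fold rise (1.05 ± 0.16, edgeR adjusted p 1.78e-06). It rose 1.53-fold in cKO (0.62 ± 0.16, edgeR adjusted p 0.00165), from 9.08 to 11.9 CPM when fed to 13.3 to 18.2 CPM when fasted. Neither comparison had overlapping libraries.

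Slc25a51, the mitochondrial NAD carrier, measured 88.8, 83.5, 93.4, 91.4 and 88.9 CPM in wild type fed and 106, 122, 116, 118 and 121 CPM in wild type fasted. It rose there by 0.39 ± 0.07 (edgeR adjusted p 1.34e-05; 0.12 and not passed with library totals). In cKO it measured 83.3 ± 7.29 CPM (SD, n = 5) when fed and 80.7 ± 5.34 CPM when fasted, a difference of -0.05 (95% interval -0.19 to 0.10). Slc25a36, a pyrimidine nucleotide carrier like Slc25a33, rose in wild type (0.51 ± 0.10, edgeR adjusted p 0.000113) and differed by -0.06 in cKO (95% interval -0.28 to 0.16). With fasted replicates 1 and 2 alone its wild-type rise was 0.25 and did not pass. The peroxisomal carrier Slc25a17 rose by 0.21 ± 0.06 and 0.20 ± 0.06 in wild type and cKO, but with GC and length offsets both lost the call (0.10 and 0.05) and with library totals they were -0.05 and 0.00. Slc25a42 (coenzyme A) and Slc25a26 (S-adenosylmethionine) passed in neither genotype.

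The carriers of the citrate and malate-aspartate routes fell. Slc25a1, which exports citrate for cytosolic acetyl-CoA, measured 178, 175, 162, 184 and 175 CPM in wild type fed and 86.6, 109, 128, 126 and 118 CPM in wild type fasted (-0.62 ± 0.07, edgeR adjusted p 2.98e-08). In cKO it went from 195, 195, 197, 189 and 186 CPM to 116, 116, 122, 130 and 116 CPM (-0.68 ± 0.07, edgeR adjusted p 9.99e-09). Fasted libraries were below every fed library in both genotypes. Slc25a11 fell likewise, by 0.44 ± 0.07 in wild type and by 0.58 ± 0.07 in cKO, again with no overlap. The dicarboxylate carrier Slc25a10 did not pass in either (-0.34 and 0.06).

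Slc25a12 measured 217.8, 220.3, 224.2, 245.7 and 233.4 CPM in wild type fed and 157.3, 152.9, 173.3, 228.6 and 215.6 CPM in wild type fasted (-0.30 ± 0.08, edgeR adjusted p 0.00326). Fasted replicate 4 reached into the fed range, and replicate 5 lay just below it. Its fall was -0.15 with fasted replicates 3 to 5 alone and -0.57 with replicates 1 and 2 alone. In cKO it went from 219.7, 233.6, 229.4, 218.4 and 219.7 CPM to 178.7, 151.6, 149.6, 154.7 and 176.9 CPM (-0.47 ± 0.08, edgeR adjusted p 3.68e-05) with no overlap. Slc25a22, the neuronal glutamate carrier, measured 101.5, 101.1, 95.6, 105.4 and 99.6 CPM in wild type fed and 46.5, 55.3, 80.4, 74.3 and 81.1 CPM in wild type fasted (-0.57 ± 0.10, edgeR adjusted p 2.51e-05). In cKO it went from 103.8, 82.0, 89.0, 92.1 and 86.4 CPM to 62.01, 62.35, 58.52, 66.85 and 63.51 CPM (-0.53 ± 0.11, edgeR adjusted p 9.84e-05). Fasted libraries were below all fed ones in both genotypes, with wild type fasted replicates 1 and 2 the lowest of their group. With fasted replicates 1 and 2 alone its wild-type fall was -1.003, and with replicates 3 to 5 alone it was -0.35. After offsets for GC content and length it was -0.30 in wild type and -0.20 in cKO, where it no longer passed (edgeR adjusted p 0.0798).

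Of the carriers of other amino acids and glutathione, Slc25a38, which brings glycine into the matrix for haem synthesis, fell from 34.7, 33.8, 36.4, 32.6 and 36.9 CPM to 19.3, 17.8, 20.9, 18.7 and 19.4 CPM in wild type (-0.86 ± 0.10, edgeR adjusted p 3.23e-08). In cKO it went from 28.0, 24.3, 27.3, 27.4 and 25.8 CPM to 15.4, 21.6, 23.5, 24.0 and 22.7 CPM (-0.31 ± 0.10, edgeR adjusted p 0.013). Neither pair of groups overlapped, but the cKO call was lost without cKO fasted replicate 1 (-0.20), with fasted replicates 3 to 5 alone (-0.18, against -0.52 with replicates 1 and 2 alone) and with GC and length offsets (-0.15). The glutathione carrier Slc25a39 fell in both genotypes (-0.41 ± 0.06 and -0.42 ± 0.06), and with GC and length offsets by 0.17 and 0.16, which still passed. Its relative Slc25a40 fell in wild type (-0.68 ± 0.16, edgeR adjusted p 0.000635), where 12.9 to 15.4 CPM when fed stood against 6.20 to 10.3 CPM when fasted, and differed by -0.23 in cKO without passing. Slc25a29, the basic amino acid carrier, was low. It ranged from 4.52 to 7.66 CPM in wild type fed and from 2.25 to 3.23 CPM in wild type fasted (-1.12 ± 0.24, edgeR adjusted p 0.000186).

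Slc25a20, which exchanges acylcarnitine for carnitine and so admits long-chain fatty acids to oxidation, was the single member to pass in opposite directions. It measured 22.99, 26.06, 21.2, 25 and 25.79 CPM in wild type fed and 16.4, 12.1, 13.1, 17.1 and 17.5 CPM in wild type fasted, a 1.58-fold fall (-0.66 ± 0.12, edgeR adjusted p 1.94e-05). In cKO it measured 20.9, 22.2, 20.7, 22.6 and 20.8 CPM when fed and 25.4, 34.7, 25.7, 29.5 and 23.8 CPM when fasted, a 1.30-fold rise (0.38 ± 0.11, edgeR adjusted p 0.00694). No fasted library overlapped the fed ones in either genotype. With library totals the cKO rise was 0.18 and did not pass (edgeR adjusted p 0.167), and the wild-type fall was -0.93. The longest Slc25a20 transcript holds 366 bases that match other genes, among them Tmem72, at 98.4%.

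Of the uncoupling-protein relatives, Slc25a14 fell in wild type (-0.23 ± 0.06, edgeR adjusted p 0.0019; -0.37 with GC and length offsets, and -0.15 with fasted replicates 1 and 2 alone). In cKO its difference of -0.08 did not pass, but that of -0.22 with GC and length offsets did (edgeR adjusted p 0.00341). Slc25a27 fell in cKO, from 71.9 to 79.8 CPM when fed to 49.9 to 62.6 CPM when fasted (-0.40 ± 0.08, edgeR adjusted p 0.000153), and differed by 0.06 in wild type (95% interval -0.11 to 0.23). The iron importers parted in wild type: Slc25a28, the form of most tissues, rose by 0.62 ± 0.12 (edgeR adjusted p 7.81e-05), and Slc25a37, the erythroid form, fell by 1.28 ± 0.41 (edgeR adjusted p 0.00912) from 2.44 to 5.06 CPM to 1.03 to 2.93 CPM. Neither passed in cKO. The calcium-regulated carrier Slc25a23 fell in both genotypes (-0.64 ± 0.15 and -0.63 ± 0.16). With GC and length offsets these falls were -0.41, which passed, and -0.34, which did not. The cKO fall also did not pass with fasted replicates 1 and 2 alone (-0.41). Slc25a25, of the same group, rose in wild type (0.29 ± 0.11, edgeR adjusted p 0.0227), a call lost without wild type fed replicate 2, 3 or 4 or fasted replicate 2 (0.21 to 0.27), with fasted replicates 3 to 5 alone (0.25) and with library totals (0.03).

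The outer membrane member Slc25a46, which acts in mitochondrial shape, differed by 0.04 on fasting in each genotype and did not pass on the TMM scale (95% intervals -0.08 to 0.17 and -0.09 to 0.17). With library totals it was called as falling (-0.22 and -0.15). Of members without a role group, Slc25a43 fell in wild type (-1.29 ± 0.42; -1 and not passed with fasted replicates 1 and 2 alone), and Slc25a53 rose (0.51 ± 0.19). The call of Slc25a53 was lost without wild type fed replicate 1 (0.41) or 5 (0.47), without wild type fasted replicate 5 (0.44), with library totals (0.24) and with each subset of fasted replicates (0.48 and 0.54).

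**Figure D3:**
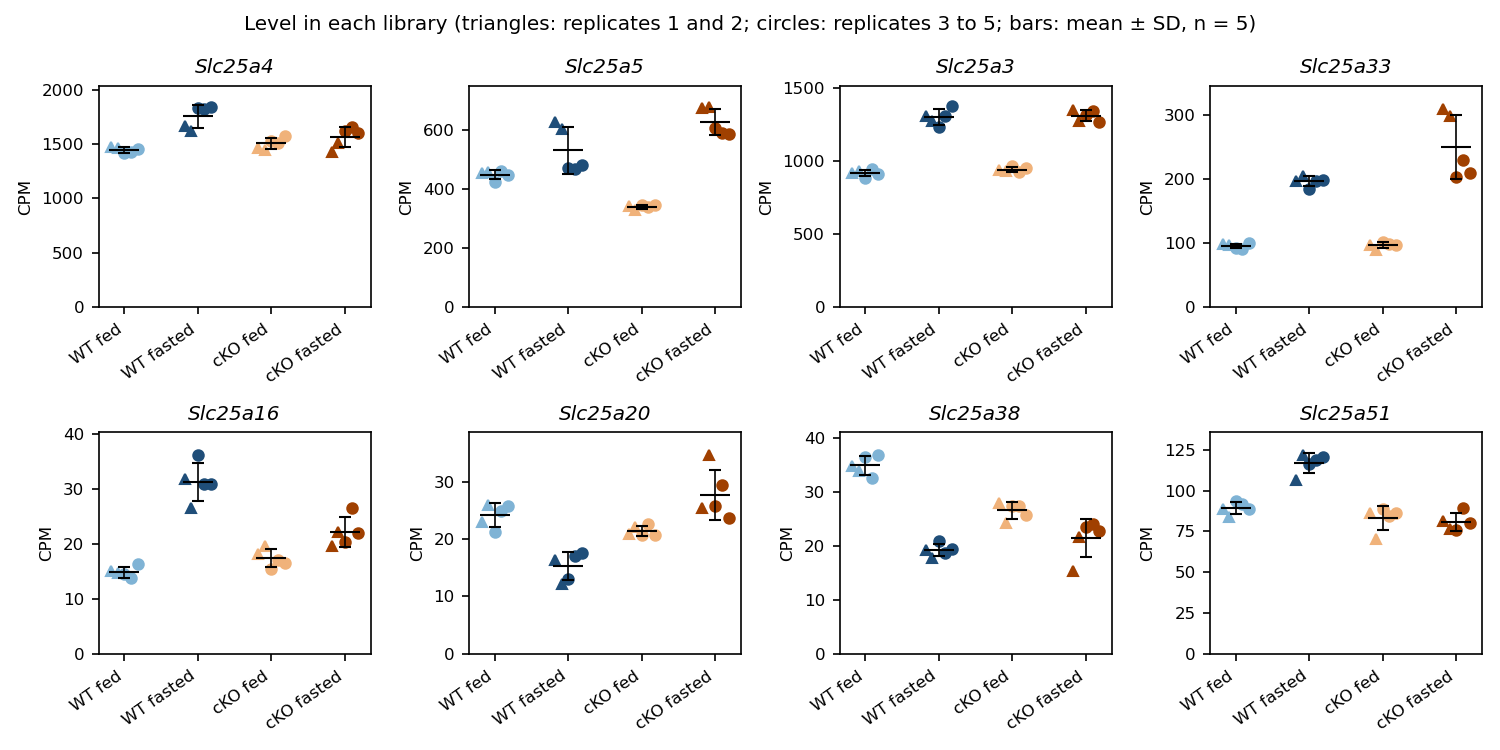
Level in CPM of 8 Slc25a genes in each of the 20 libraries, by group; triangles are replicates 1 and 2, circles replicates 3 to 5, and bars the mean ± SD over 5 libraries. Slc25a3 separates fed from fasted in both genotypes (887 to 964 CPM against 1231 to 1378 CPM), and the triangles of Slc25a5 stand above the circles in wild type fasted.

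The members that fell on fasting had a higher median GC content than those that rose. The median GC content of the longest transcript was 46.5% for members that rose and 54.2% for those that fell in wild type, and 45.1% against 56.0% in cKO. Across the 38 members, Pearson's r between GC content and the log2 fold change was -0.33 in wild type and -0.25 in cKO, against -0.10 and -0.18 across 12713 genes. Genes of 1 library set share amplification and depth, and these correlations are given as a description. With offsets for GC content and length, the counts became 11 rises and 14 falls in wild type and 6 rises and 6 falls in cKO. Shares of all genes called with these offsets are not given.

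**Figure D4:**
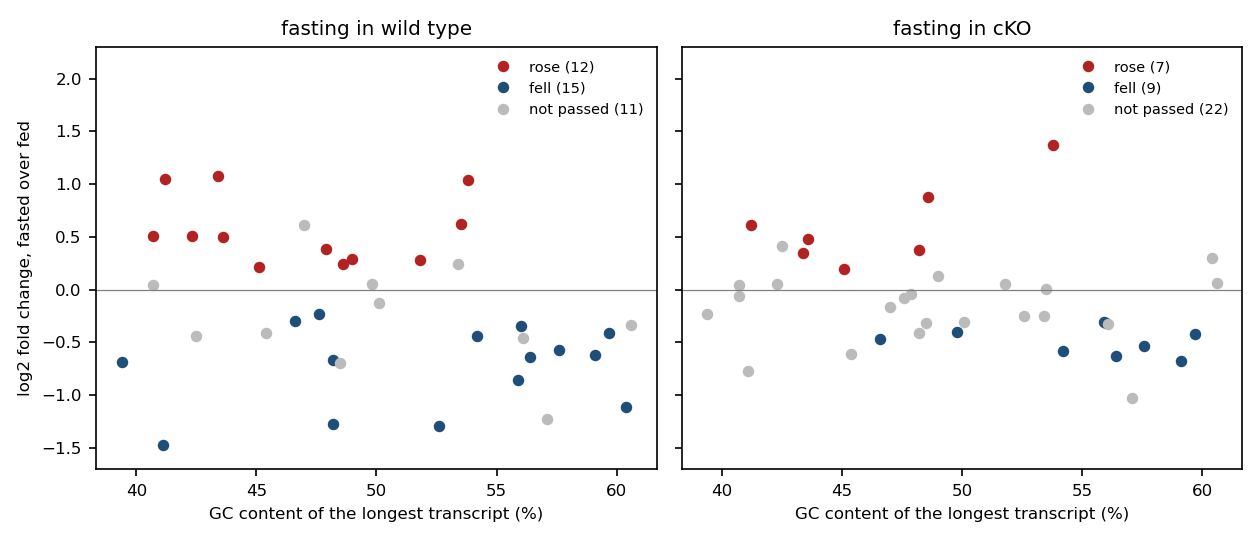
Log2 fold change, fasted over fed, of the 38 tested Slc25a genes against the GC content of the longest transcript in percent, in wild type (left) and cKO (right); each point is a gene, coloured by its call. Points that rose lie mostly to the left of those that fell, with median GC contents of 46.5% and 54.2% in wild type.

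Lists of genes that act beside the carriers were counted in the same way, against the background of 29.6% rising and 31.3% falling in wild type and of 26% and 27% in cKO given above. Of 15 genes for the import and insertion of carriers, which the outer membrane receptors and the small Tim chaperones pass through the intermembrane space, 10 rose and 1 fell in wild type (73.3% called) and 12 rose and none fell in cKO (80% called). The list's median log2 fold change was 0.30 and 0.47. Tomm20, an import receptor, rose by 0.56 ± 0.05 and 0.47 ± 0.05, and Timm10b, a chaperone of the carrier path, by 0.78 ± 0.08 and 0.87 ± 0.08 in wild type and cKO. For Timm10b, 22.1% of exon bases overlap other genes. Among 20 enzymes that use carried substrates, 5 rose and 9 fell in wild type (70% called) and 4 rose and 9 fell in cKO (65% called). The cytosolic malate dehydrogenase Mdh1 rose by 0.63 ± 0.04 and 0.51 ± 0.04, from 2061 ± 30.9 CPM (SD, n = 5) in wild type fed, while its shuttle's carriers Slc25a11 and Slc25a12 fell. Citrate synthase (Cs) fell by 1.12 ± 0.08 in wild type and by 0.30 ± 0.08 in cKO, and the brain carnitine palmitoyltransferase Cpt1c by 0.83 ± 0.07 and 0.93 ± 0.08.

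Of 19 tested genes for other mitochondrial transport, 4 rose and 8 fell in wild type (63.2% called), and 5 rose and 6 fell in cKO (57.9% called), shares near the background of 60.9% and 53.1%. Both subunits of the pyruvate carrier rose, Mpc1 by 0.52 ± 0.06 and 0.54 ± 0.06 and Mpc2 by 0.50 ± 0.07 and 0.53 ± 0.07 in wild type and cKO. Of Mpc1's exon bases, 23.1% overlap an antisense gene. Among relatives of the family, Ucp1 and Ucp3 were not tested, with group means of at most 0.155 CPM and 0.0253 CPM. Ucp2 differed by 0.07 on fasting in wild type without passing and fell by 0.34 ± 0.06 in cKO (edgeR adjusted p 2.56e-05). Mtch2, an outer membrane insertase, fell in wild type (-0.19 ± 0.06, edgeR adjusted p 0.00543) and rose in cKO (0.32 ± 0.06, edgeR adjusted p 3.42e-05).

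In fed mice, the share of carriers called between cKO and wild type was near that of all genes. By the same test 1 member was higher in cKO and 3 were lower, and 34 did not pass (10.5% called), against a background of 9.68% called, 5.87% higher and 3.81% lower. The library ranges were separate for 7 members (18.4%, background 14.5%). Slc25a5 was 1.32-fold lower in cKO (-0.40 ± 0.07, edgeR adjusted p 0.000239), and each of its cKO values given above (330.7 to 346.5 CPM) lay below each wild-type value (424.1 to 463.7 CPM). Slc25a38 was 1.31-fold lower (-0.40 ± 0.10, edgeR adjusted p 0.00872), also without overlap. Slc25a29 was lower (-0.77 ± 0.22, edgeR adjusted p 0.0266), at 2.27 to 4.01 CPM in cKO against 4.52 to 7.66 CPM in wild type.

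Slc25a25 was the member that was higher in cKO (0.38 ± 0.11, edgeR adjusted p 0.0217), with 29.0, 33.1, 33.1, 31.3 and 28.1 CPM against 29.7, 22.6, 20.4, 18.7 and 27.5 CPM, which overlapped at wild-type replicate 1. This call was lost without wild type fed replicate 2 (0.36), 3 (0.33) or 4 (0.30) or without cKO fed replicate 2 or 3 (0.35 each). That of Slc25a29 was lost without wild type fed replicate 1 (-0.67) or 3 (-0.74) or cKO fed replicate 1 (-0.66) or 5 (-0.75). Slc25a4 and Slc25a3 differed by 0.06 (95% interval -0.04 to 0.16) and 0.04. Slc25a12 and Slc25a22 did not pass either. The per-length ratio of Slc25a4 to Slc25a5 was 2.25 ± 0.068 (SD, n = 5) in wild type fed, 3.09 ± 0.072 in cKO fed, 2.36 ± 0.46 in wild type fasted and 1.76 ± 0.217 in cKO fasted. The count of changed members rose to 12 (3 higher, 9 lower) when only the 2 fed groups were fitted, and it was 2 without wild type fed replicate 3.

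In fasted mice, 3 members were higher in cKO and 7 lower, with 28 not passed (26.3% called), against a background of 20.3% called, 11.5% higher and 8.84% lower. Ranges were separate for 3 members (7.89%, background 8.96%): Slc25a20, Slc25a28 and Slc25a51. Slc25a20 was 1.82-fold higher in cKO (0.86 ± 0.12, edgeR adjusted p 1.23e-05). Slc25a51 was 1.45-fold lower (-0.53 ± 0.07, edgeR adjusted p 4.34e-06), with 81.1, 76.5, 76.0, 89.3 and 80.3 CPM in cKO against at least 106 CPM in wild type. Both kept their call under every alternative tried.

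Slc25a28 was lower in cKO fasted (-0.47 ± 0.13, edgeR adjusted p 0.00784), with 13.75, 17.96, 18.19, 18.27 and 18.26 CPM against 23.0, 19.5, 24.5, 28.9 and 23.9 CPM. Slc25a16 was lower by 0.50 ± 0.11 (edgeR adjusted p 0.00155), with 26.6 CPM in the highest cKO library and 26.5 CPM in the lowest wild-type one. Slc25a36 was lower by 0.42 ± 0.11 (edgeR adjusted p 0.00613), with 29.9, 34.7, 30.4, 32.7 and 36.2 CPM against 32.7, 41.2, 43.2, 48.9 and 52.4 CPM. These 3 did not pass with fasted replicates 1 and 2 alone, which leaves 2 libraries per fasted group. The differences of Slc25a28 (-0.41) and Slc25a16 (-0.47) then stayed near those above, and that of Slc25a36 was smaller (-0.18). Slc25a27 was lower by 0.30 ± 0.08 (edgeR adjusted p 0.00932), by 0.47 with fasted replicates 3 to 5 alone and by 0.03, not passed, with replicates 1 and 2 alone. It also did not pass when only the 2 fasted groups were fitted (-0.31).

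Slc25a33 was higher in cKO fasted (0.35 ± 0.09, edgeR adjusted p 0.00487), but this rested on replicates 1 and 2: with them alone it was 0.61, and with replicates 3 to 5 alone it was 0.14 and did not pass (edgeR adjusted p 0.0897). Slc25a5 was higher by 0.24 ± 0.07 (edgeR adjusted p 0.0151), a call lost without wild type fasted replicate 3 or 4 (0.20 each) with fasted replicates 1 and 2 alone (0.14) and when only the 2 fasted groups were fitted (0.23). Slc25a4 was lower by 0.17 ± 0.05 (edgeR adjusted p 0.0141), which was lost without cKO fasted replicate 1 (-0.13), with library totals (-0.13) and when only the 2 fasted groups were fitted (-0.17). Slc25a44, a branched-chain amino acid carrier, was lower by 0.33 ± 0.12 (edgeR adjusted p 0.0448). Its call was lost without any of wild type fasted replicates 2, 4 and 5 or cKO fasted replicates 1 to 3 (-0.27 to -0.32), and with fasted replicates 3 to 5 alone (-0.19, against -0.56 with replicates 1 and 2 alone). It was also lost with library totals, without the low-count filter, with GC and length offsets and when only the 2 fasted groups were fitted (-0.29 to -0.34). The whole count was 6 with fasted replicates 1 and 2 alone (3 higher, 3 lower) and 6 when only the 2 fasted groups were fitted (2 higher, 4 lower). For neither fit is the share of all genes called given. The Pomc-neuron markers, given above, were highest in cKO fasted replicates 3 to 5, and their part in these differences was not tested.

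The interaction asks whether the fasting response differed between genotypes. It passed for 11 of 38 members (28.9% called), against a background of 17.3% called. The response was shifted upward in cKO for 4 members (background 8.87%) and downward for 7 (background 8.44%). The upward shifts were Slc25a29 (1.42 ± 0.33, edgeR adjusted p 0.00361), Slc25a20 (1.04 ± 0.16, edgeR adjusted p 6.4e-05), Slc25a5 (0.64 ± 0.10, edgeR adjusted p 4.56e-05) and Slc25a38 (0.55 ± 0.14, edgeR adjusted p 0.00815). For Slc25a29, which was at 2.27 to 4.01 CPM in cKO fed and 2.67 to 6.38 CPM in cKO fasted, the fasting difference in cKO was 0.30 and did not pass.

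The downward shifts were Slc25a16 (-0.72 ± 0.15, edgeR adjusted p 0.00139), Slc25a28 (-0.61 ± 0.17, edgeR adjusted p 0.0147), Slc25a36 (-0.57 ± 0.15, edgeR adjusted p 0.00761), Slc25a44 (-0.49 ± 0.16, edgeR adjusted p 0.0361), Slc25a27 (-0.45 ± 0.11, edgeR adjusted p 0.00608), Slc25a51 (-0.43 ± 0.10, edgeR adjusted p 0.00209) and Slc25a4 (-0.22 ± 0.07, edgeR adjusted p 0.0209). Of the 9 carriers of nucleotides, cofactors and vitamins, 3 passed (33.3%, background 17.3%), all downward, and Slc25a33 of the same list had an interaction of 0.33 that did not pass (edgeR adjusted p 0.0598). The abundant fallers Slc25a1 and Slc25a11, and Slc25a12 and Slc25a22, did not pass. With fasted replicates 1 and 2 alone, Slc25a27 (-0.17), Slc25a28 (-0.54), Slc25a36 (-0.33) and Slc25a38 (0.41) did not pass. Slc25a4 did not pass without cKO fasted replicate 1 (-0.18) or with library totals (-0.15), and Slc25a44 lost its call without any of 11 libraries (-0.42 to -0.49), with library totals (-0.42), without the low-count filter (-0.49) and with fasted replicates 3 to 5 alone (-0.35).

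**Figure D5:**
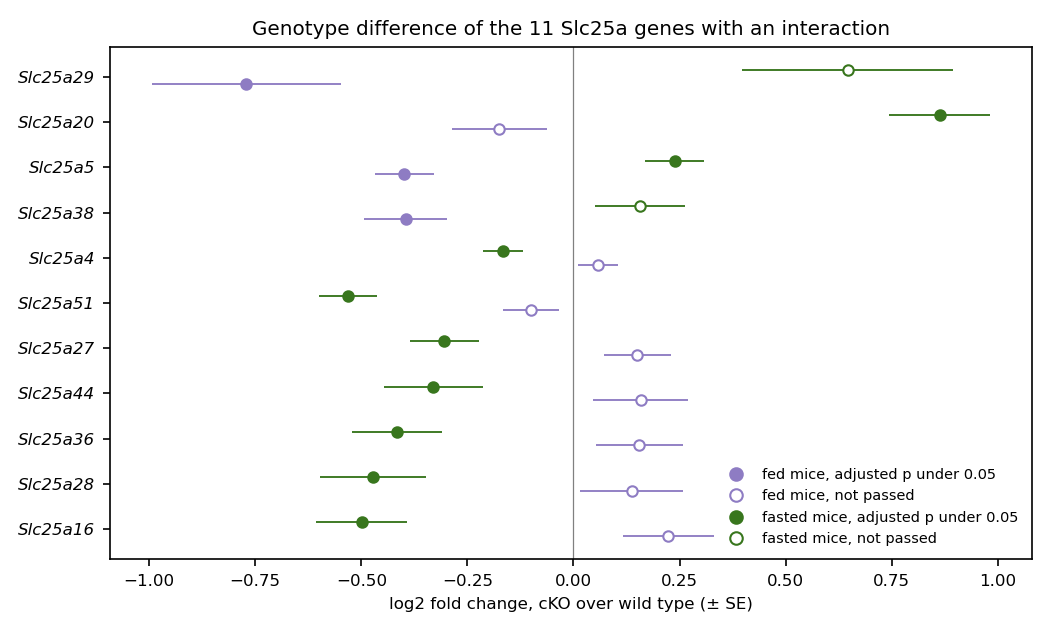
Log2 fold change of cKO over wild type, with its SE, in fed mice (purple) and fasted mice (green) for the 11 Slc25a genes whose interaction passed; filled points have an adjusted p under 0.05. Slc25a5 lies at -0.40 when fed and 0.24 when fasted, and Slc25a20 at -0.18 and 0.86.

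Among the neighbours of the carriers, citrate synthase, which fell on fasting in both genotypes, had a positive interaction (0.81 ± 0.12, edgeR adjusted p 1.78e-05). Mtch2 had a positive interaction (0.51 ± 0.08, edgeR adjusted p 7.53e-05) and Ucp2 a negative one (-0.41 ± 0.08, edgeR adjusted p 0.00127). Of the import genes 2 of 15 passed (13.3%), Timm8a1 (0.79 ± 0.20) and Timm9 (0.37 ± 0.10). Of the enzymes 3 of 20 passed (15%), and of the other transporters 2 of 19 (10.5%). These shares lay below the background of 17.3% called.

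Promoter sequence is shown for 3 members, the one with opposite responses (Slc25a20) and the pair whose windows hold a cyclic AMP response element (Slc25a25 and Slc25a36). The sequences are RefSeq's on GRCm38.p6, read 5′ to 3′ on the gene's strand, and are the exon-free stretch of the window before the start. Capitals mark a CCGGAAG match (the core of ETS factor sites) in Slc25a20, TGACGTCA (the cyclic AMP response element) in Slc25a25, at 1 of its 3 starts, and in Slc25a36, and CACGTG (an E-box) in Slc25a36.
Slc25a20, chr9:108661886-108662087, plus strand: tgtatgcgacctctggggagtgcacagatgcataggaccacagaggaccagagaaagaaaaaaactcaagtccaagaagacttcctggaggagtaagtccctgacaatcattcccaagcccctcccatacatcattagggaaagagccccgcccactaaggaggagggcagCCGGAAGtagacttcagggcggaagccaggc
Slc25a25, chr2:32424067-32424316, minus strand: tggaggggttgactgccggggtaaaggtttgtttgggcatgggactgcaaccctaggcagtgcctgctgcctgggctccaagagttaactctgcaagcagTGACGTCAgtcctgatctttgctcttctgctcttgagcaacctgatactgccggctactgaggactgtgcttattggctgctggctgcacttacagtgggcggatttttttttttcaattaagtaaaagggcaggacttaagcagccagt
Slc25a36, chr9:97111158-97111291, minus strand: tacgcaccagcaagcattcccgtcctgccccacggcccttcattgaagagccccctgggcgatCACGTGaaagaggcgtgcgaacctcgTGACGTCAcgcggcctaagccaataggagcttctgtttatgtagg

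The windows of 250 bases before the start covered 36 members with 46 windows, so a member with several starts had several chances of a match. The 7 motifs, chosen after the values were seen, were searched for on both strands. The search used the whole windows, which can hold annotated exons, unlike the stretches printed above. CACGTG was found in 7 of 36 members, in 8 of 46 windows (6.02% of all 32851 promoter windows): Slc25a1, Slc25a13, Slc25a14, Slc25a15, Slc25a31, Slc25a33 and Slc25a36. TGACGTCA was found in 2 members and 2 windows (1.55% of all windows). CCGGAAG was found in 6 members and 6 windows (6.91%), Slc25a3, Slc25a4, Slc25a17, Slc25a20, Slc25a38 and Slc25a54. The NRF1 motif was found in Slc25a3 and Slc25a31, in 2 windows (3.74% of all windows). CCAAT was found in 18 members and 21 windows (33.8%), AGAACA in 4 members and 4 windows (16.1%), and TCAAGGTCA in none (0.387%). Members with CACGTG include Slc25a33, which rose in both genotypes, and Slc25a1, which fell in both. Matches are a description of these windows and not of binding.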

How the data were processed

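RNA-seq was measured in 20 libraries, 5 per group, of 1000 sorted cells each, amplified for 15 cycles. The deposited gene counts were made by the authors with Trimmomatic 0.36, HISAT2 2.1.0 and featureCounts 1.6.2, per the submitters' processing notes, which also name mouse build GRCm38 and DESeq2 1.20.0. Neither the strand setting nor the gene models used for counting were stated. The deposited normalized signal was tested to be the counts divided by 1 factor per library and was not used further. All 47 members matched GENCODE M21 by name (22063 of 23129 genes did), which gave lengths, GC content and overlaps. Near-identical stretches in other genes' transcripts (at least 95% identity over at least 200 aligned bases) were searched for with minimap2 2.31-r1302.

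All 20 libraries were fitted together with edgeR 4.0.16 (limma 3.58.1, R 4.3.3; TMM scaling, filterByExpr with a minimum count of 10 and total of 15, quasi-likelihood test, Benjamini-Hochberg adjustment over 13237 genes, threshold 0.05). The procedure was tested on simulated data. Intervals cover 95%. Alternatives were DESeq2 1.42.0, other scalings and filters, GC and length offsets, subsets of libraries and a replicate block. Scaling by library totals was added after the data were seen. Fasted replicates 1 and 2, and 3 to 5, were also fitted apart.

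Total counts were 8494499 to 13573524 per library, so that 3 counts, the floor used, correspond to 0.221 to 0.353 CPM, which covers counting error only. Every tested member may be named in every comparison; 1 member is counted but not reported here. Values per library were given for up to 8 members per comparison with the largest change past the threshold and a mean log2 CPM of 2 or more, and for Slc25a3, Slc25a4, Slc25a5, Slc25a12 and Slc25a22. Of each related list, up to 4 genes with the smallest p were eligible. Other genes and values named were chosen after their values were seen. The members and lists were chosen with earlier results of these data known.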

Additional observations from a re-analysis of the deposited data

Results flagged for a closer look

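In 5 of the 152 sets of 5 libraries tested (3.29%; chance alone gives about 1 in 20), a single library lay far from the other 4. Slc25a15, the ornithine carrier, stood at 2.71 CPM in wild type fasted replicate 2, against 0.976 to 1.46 CPM. Slc25a28 stood at 13.8 CPM in cKO fasted replicate 1, against 17.96 to 18.27 CPM, and Slc25a38 in the same library at 15.4 CPM, against 21.6 to 24.0 CPM. Slc25a37 stood at 3.08 CPM in cKO fed replicate 3, against 1.32 to 1.77 CPM. Slc25a51 stood at 70.5 CPM in cKO fed replicate 2, against 84.3 to 88.7 CPM.

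The interaction term of edgeR's fit passed for 11 members (28.9%, background 17.3%). Not all of these calls were stable: Slc25a4, Slc25a27, Slc25a28, Slc25a36, Slc25a38 and Slc25a44 lost theirs in alternatives given above. The log2 difference was 1.42 for Slc25a29, 1.04 for Slc25a20, 0.64 for Slc25a5 and 0.55 for Slc25a38. It was -0.72 for Slc25a16, -0.61 for Slc25a28, -0.57 for Slc25a36, -0.49 for Slc25a44, -0.45 for Slc25a27, -0.43 for Slc25a51 and -0.22 for Slc25a4.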

How the results depend on the processing

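Of 68 calls on single members, 35 held in every alternative and 33 were lost or turned in at least 1. All 68 held with DESeq2, its size factors, upper-quartile scaling, the stricter filter, robust fitting and the replicate block. Same-numbered libraries of the 2 fasted groups deviated together weakly (correlations of 0.02 to 0.13, mean 0.09, against -0.02 between other numbers), and those of the other group pairs had -0.05 to 0.04. Not every correlation was above 0.1, so the numbers were not taken as pairs. With the block 27, 16, 4, 11 and 11 members passed in the wild-type fasting, cKO fasting, fed genotype, fasted genotype and interaction comparisons. Leaving out 1 library gave 26 to 28, 14 to 17, 2 to 4, 8 to 13 and 9 to 12. When only the 2 groups compared were fitted, 12 passed in fed mice and 6 in fasted mice, and with fasted replicates 1 and 2 alone 6 passed in fasted mice. Shares of all genes called in these alternatives are not given, so such counts have no background. With library totals, differences turned for Slc25a17 (-0.049), Slc25a5 (-0.021), Slc25a27 (-0.20) and Slc25a46 (-0.22) in wild type fasting, and for Slc25a46 (-0.15) and Slc25a4 (-0.14) in cKO fasting. Slc25a5 in wild type also turned with GC and length offsets (-0.032), and with those and the block (-0.039). Why these moved was not tested. The ratio of Slc25a4 to Slc25a5 in wild type fed was 2.07 with the longest transcript as length, against 2.25. Members at a few CPM rest on few counts, such as 20 to 28 per wild type fasted library for Slc25a29.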
